A study of Mus musculus with 6 samples.

Results

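The rows for Yap1, Wwtr1 (which encodes TAZ), Tead1, Tead2, Tead3, Tead4, Ctgf, Cyr61, Ankrd1 and Amotl2 were taken by gene symbol from a table of read counts, which gave 10 genes of the 24421 listed. The counts came from poly(A) RNA of mouse alveolar type 2 (AT2) cells, the surfactant-making stem cells of the lung alveolus, sorted by flow cytometry for a lineage label, with 3 AT2CTRL and 3 AT2CAB libraries. AT2CTRL mice were Sftpc-CreERT2/+ with R26-tdTomato/+, and AT2CAB mice were Sftpc-CreERT2/+ with R26-tdTomato/R26-caBmpr1a. The caBmpr1a allele makes BMPR1a, a type I BMP receptor, signal without its ligand. In both groups 1 mouse was 16 weeks old and 2 mice were 12 weeks old. Cre was driven from the surfactant gene Sftpc and switched on by tamoxifen, and the sort was on tdTomato, which marks recombination of the reporter and not of the caBmpr1a allele. The comparison asks whether raised BMP receptor activity in AT2 cells went with a change in the RNA of the YAP/TAZ pathway.

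YAP and TAZ are transcriptional co-activators. The Hippo kinases phosphorylate them and hold them in the cytoplasm, and stretch, a spread cell shape and actin tension let them enter the nucleus, where they bind DNA through the TEAD factors and switch on genes such as Ctgf, Cyr61, Ankrd1 and Amotl2. In the lung alveolus they are known for their part in regeneration and in the flat, stretched alveolar type 1 (AT1) cells. Their activity is set largely by phosphorylation and by where the proteins lie in the cell, neither of which RNA levels measure.

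No member passed the test. All 10 members had enough counts to be tested, and 0 of 10 were called by edgeR's quasi-likelihood test at a Benjamini-Hochberg adjusted p under 0.05 and a change of more than 1 on the log2 scale, up or down, against 0.239% of the 16723 genes tested. At an unadjusted p under 0.05 the count was 0 of 10 in edgeR, against 9.67% of all genes tested. DESeq2 gave 1 of 10 at that level (Ankrd1) and limma-voom 0, and the share of all genes was not counted for these fits. Neither called a member, against 144 of 22262 genes called in DESeq2 and 26 of 16723 in limma-voom. The estimates were positive for 6 members and negative for 4, with a median log2 fold change of 0.02. Over all tested genes 48.8% were positive and the median was -0.01. A p that misses the threshold does not show that the groups were alike, so the interval of each estimate is given. For 6 members (Yap1, Wwtr1, Tead1, Tead3, Tead4 and Amotl2) the 95% interval lay within a 2-fold change in both directions, and for Tead2, Ctgf, Cyr61 and Ankrd1 it did not.

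**Figure D1:**
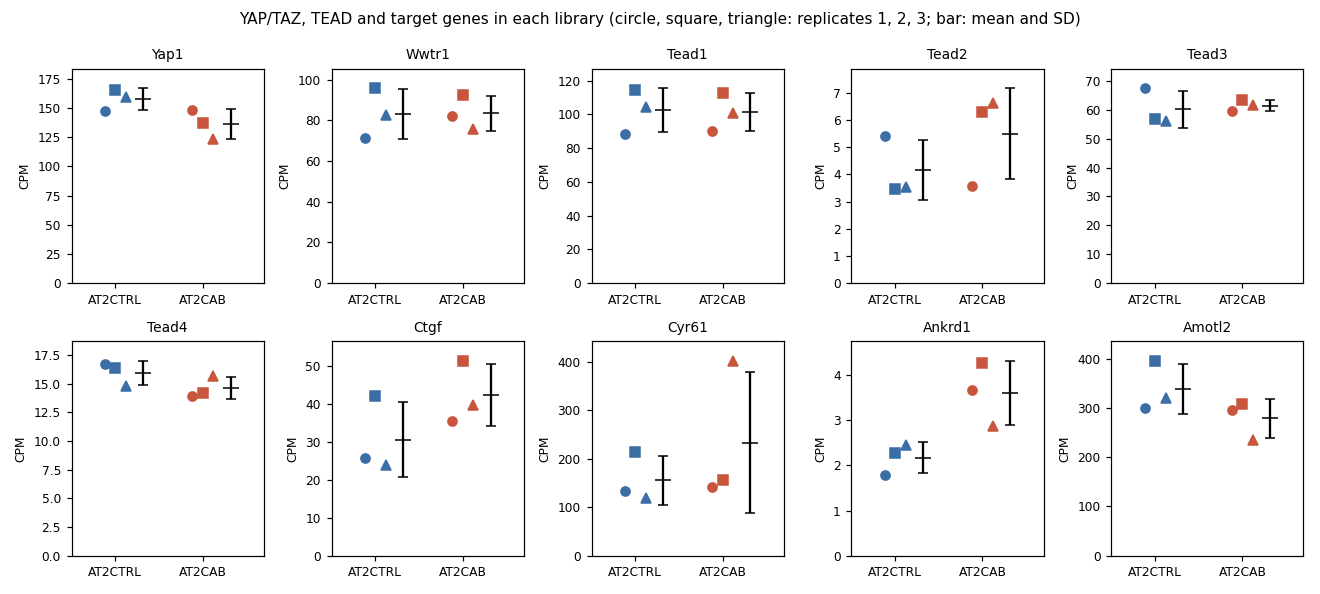
Counts relative to a common library total (CPM) of the 10 members in each library, 1 panel per gene with its own axis from 0, AT2CTRL in blue and AT2CAB in red, with circle, square and triangle for replicates 1, 2 and 3 and a black bar for the mean and SD of 3 libraries. Ankrd1 is the 1 panel in which all red points lie above all blue points, and the red triangle of Cyr61 at 401.7 CPM stands far above the other 5 points.

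The libraries held from 21554249 to 28440227 counts each, so that 3 counts were worth 0.0976 to 0.138 CPM, which covers counting error only. Bmpr1a itself had 105.4, 129.9 and 124.7 CPM in the 3 AT2CTRL libraries and 131.1, 128.4 and 96.8 CPM in the 3 AT2CAB libraries. Of 7 BMP target genes 5 were called higher, against 0.227% of all genes in that direction, and their summed level was 284 to 337 CPM in AT2CTRL and 864 to 1897 CPM in AT2CAB. The 12 AT2 markers summed to between 154245 and 170893 CPM in AT2CTRL and to between 110738 and 135850 CPM in AT2CAB, so the defining genes of the labelled cell type were abundant in all 6 libraries. Of these 12, 11 had a negative log2 fold change (median -0.43) and 0 were called. At an unadjusted p under 0.05 in edgeR 6 were lower, against 5.05% of all genes. For 7 every AT2CAB library lay below every control, as for 1692 of the 16723 genes tested. In bulk samples fewer cells of a type and less RNA per cell cannot be told apart. The 12 AT1 markers summed to 3502 to 4488 CPM and 3773 to 4313 CPM, with 0 called. Of markers of other cells, 8 airway genes summed to 723 to 909 CPM and 838 to 1219 CPM with Krt5 at 0 in every library and 1 of 7 tested called higher (Tppp3, at 1.85), 10 immune genes to 2061 to 2754 CPM and 337 to 1411 CPM, of which Lyz1 made up most (without it 114 to 141 CPM and 82.1 to 168 CPM, with 7 of the other 9 genes positive), and 6 mesothelial genes to 78.5 to 98.2 CPM and 78.9 to 136.8 CPM. AT2CTRL replicate 1 and AT2CAB replicate 3 were the libraries with reads on 4 Y-linked genes (3935 and 4494 counts, against 0 in the others) and stood apart on the first principal component, which held 49.3% of the variance. Without them, 0 of 10 members were called, against 56 of 16316 genes tested, and every member but Cyr61 had an estimate of the same sign.

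Yap1, on chromosome 9 of mm10 from 7932001 to 8004596, encodes the co-activator YAP. Its level was 147.1, 165.9 and 159.8 CPM in AT2CTRL replicates 1, 2 and 3 and 148.7, 137.1 and 123.3 CPM in AT2CAB replicates 1, 2 and 3. AT2CAB replicate 3 was the lowest library and AT2CTRL replicate 2 the highest, and the groups overlapped only through AT2CAB replicate 1, which lay just above AT2CTRL replicate 1. The log2 fold change was -0.21 with an SE of 0.12 (95% interval -0.48 to 0.06, adjusted p = 0.615 by edgeR's quasi-likelihood test, with p adjusted by Benjamini and Hochberg's method over all tested genes). With 1 library left out in turn it ran from -0.26 (without AT2CTRL replicate 1) to -0.10 (without AT2CAB replicate 3). Scaling by upper quartile or by library size only gave -0.14 and -0.081. A covariate for Y-linked reads, chosen after seeing the data, gave -0.21 (unadjusted p = 0.037, adjusted p = 0.236 in edgeR).

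Wwtr1, on chromosome 3 from 57455644 to 57575910, encodes TAZ, the paralog of YAP. It had 71.2, 95.8 and 82.8 CPM in AT2CTRL and 82.2, 92.2 and 75.5 CPM in AT2CAB, so that the AT2CAB values lay inside the range of the controls. The mean was 83.3 ± 12.3 CPM (SD, n = 3) in AT2CTRL and 83.3 ± 8.42 CPM (SD, n = 3) in AT2CAB. The 95% interval of its log2 fold change ran from -0.32 to 0.32. Per length of exon, Yap1 was above Wwtr1 in each library, by 2.37, 1.99 and 2.21 times in AT2CTRL and by 2.07, 1.71 and 1.87 times in AT2CAB. These ratios overlapped between the groups through AT2CTRL replicate 2 and AT2CAB replicate 1.

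The TEAD factors carry the DNA-binding domain through which YAP and TAZ reach their targets. Tead1 (chromosome 7, 112679320 to 112906805) had 88.5, 114.6 and 104.5 CPM in AT2CTRL and 90.2, 113.0 and 101.0 CPM in AT2CAB. Tead3 (chromosome 17, 28331673 to 28350805) had 67.5, 56.9 and 56.0 CPM in AT2CTRL and 59.5, 63.2 and 61.7 CPM in AT2CAB. For both genes the AT2CAB values lay within the range of the controls, and the 95% interval of the log2 fold change was -0.33 to 0.30 for Tead1 and -0.23 to 0.29 for Tead3. The sign of the Tead1 estimate, -0.016, turned under 3 other scalings, to 0.0098, 0.059 and 0.12.

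Tead4 (chromosome 6, 128227143 to 128300813) had 16.7, 16.4 and 14.8 CPM in AT2CTRL and 13.9, 14.2 and 15.7 CPM in AT2CAB, and AT2CAB replicate 3 alone lay within the controls. Its log2 fold change of -0.13 had an SE of 0.13, and was 0.0032 when scaled by library size only. Tead2 (chromosome 7, 45215753 to 45233619), the least abundant of the family, had 5.43, 3.47 and 3.54 CPM in AT2CTRL and 3.58, 6.28 and 6.64 CPM in AT2CAB. Here AT2CTRL replicate 1 and AT2CAB replicate 1 each sided with the other group. The log2 fold change of Tead2 was 0.41 with an SE of 0.32 (95% interval -0.33 to 1.15, adjusted p = 0.709 by edgeR's quasi-likelihood test). It was 0.65 without AT2CTRL replicate 1 and 0.67 without AT2CAB replicate 1.

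Tead3 held the largest share of the summed TEAD level per length of exon in every library, with 53.4% ± 3.36 (SD, n = 3) in AT2CTRL and 54.0% ± 2.15 (SD, n = 3) in AT2CAB. The share of Tead1 was 27.6% ± 4.39 and 26.8% ± 1.42 (SD, n = 3 each), and that of Tead2 was 5.10% ± 1.13 and 6.65% ± 1.69 (SD, n = 3 each). Both of these shares overlapped between the groups. The share of Tead4 was 13.8%, 14.2% and 13.5% in AT2CTRL and 12.9%, 11.5% and 13.1% in AT2CAB, so that the groups did not overlap. No test was made on the shares, and with 3 libraries against 3 an exact permutation test cannot give a two-sided p below 0.1. The summed TEAD level was 37.4 ± 1.87 CPM per kilobase in AT2CTRL and 37.9 ± 2.55 CPM per kilobase in AT2CAB (SD, n = 3 each).

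**Figure D2:**
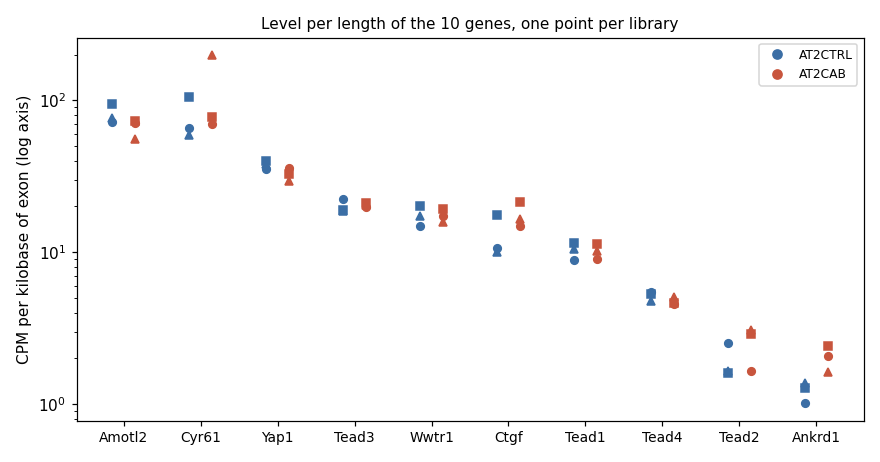
Level of each member in CPM per kilobase of exon (log axis), 1 point per library, AT2CTRL in blue and AT2CAB in red, with circle, square and triangle for replicates 1, 2 and 3, and genes in the order of their AT2CTRL means. The order runs from Amotl2 and Cyr61 near 80 to Tead2 and Ankrd1 near 1 to 3, and the spread among libraries is widest for Cyr61.

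Compared per length of exon, the members spanned a wide range. In AT2CTRL, Amotl2 (80.7 ± 12.0 CPM per kilobase) and Cyr61 (76.6 ± 25.1) led and overlapped, followed at a distance by Yap1 (37.8 ± 2.30; SD, n = 3 each). Tead3, Wwtr1, Ctgf and Tead1 came next with means of 20.03, 17.4, 12.8 and 10.3 CPM per kilobase, each overlapping the next in its range over 3 libraries. Tead4 (5.19), Tead2 (1.92) and Ankrd1 (1.23) each lay apart from their neighbours. In AT2CAB the order was the same except that Cyr61 had the higher mean of the leading pair and Ctgf that of the pair with Wwtr1, and in both pairs the ranges overlapped. Tead2 and Ankrd1 overlapped there, at 2.55 ± 0.777 and 2.04 ± 0.399 CPM per kilobase (SD, n = 3 each).

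TEAD factors bind the letters GGAATG, and the 250 bases before the RefSeq start of each member (build GRCm38.p6) were searched for them on both strands, where the reverse strand reads CATTCC. RefSeq promoters were matched for 7 of the 10 members. Those of Ctgf, Tead1 and Tead4 were not matched. The letters were present before at least 1 start of 6 of these 7 genes, against 14.4% of 27025 genes with a promoter of this length. Tead2 was the exception, and by promoter the count was 8 of 10, against 12.6% of all 32851. The 2 Wwtr1 promoters overlap and share 1 match, which is counted for both. A match is a description of the letters and not a measured binding site, and Cyr61, Ankrd1 and Amotl2 belong to the gene set as known TEAD targets. The promoters of these 3 targets are shown because their RNA is the readout of the pathway described next, with the searched letters in capitals and the transcription start just after the last base. Ankrd1 is at chr19:36119845-36120094 on the minus strand, Cyr61 (Ccn1 in RefSeq) at chr3:145649986-145650235 on the minus strand and Amotl2 at chr9:102717554-102717803 on the plus strand.
Ankrd1: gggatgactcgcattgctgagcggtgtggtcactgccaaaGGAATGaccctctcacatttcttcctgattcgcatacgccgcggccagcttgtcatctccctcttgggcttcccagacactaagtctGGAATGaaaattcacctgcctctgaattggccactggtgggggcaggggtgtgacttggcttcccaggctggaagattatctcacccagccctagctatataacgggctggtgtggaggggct
Cyr61: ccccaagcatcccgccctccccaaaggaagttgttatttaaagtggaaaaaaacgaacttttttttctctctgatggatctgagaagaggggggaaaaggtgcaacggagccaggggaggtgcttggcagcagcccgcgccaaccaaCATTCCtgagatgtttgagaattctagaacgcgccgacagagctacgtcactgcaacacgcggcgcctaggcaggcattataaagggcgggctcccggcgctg
Amotl2: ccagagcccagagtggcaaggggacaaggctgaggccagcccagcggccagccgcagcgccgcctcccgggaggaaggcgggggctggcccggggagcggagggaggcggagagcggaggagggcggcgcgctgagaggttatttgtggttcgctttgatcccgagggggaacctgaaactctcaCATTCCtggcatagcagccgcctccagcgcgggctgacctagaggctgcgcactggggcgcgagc
In Ankrd1 the letters begin 210 and 123 bases before the start on the forward strand. In Cyr61 they begin 103 bases and in Amotl2 65 bases before it, both on the reverse strand.

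**Figure D3:**
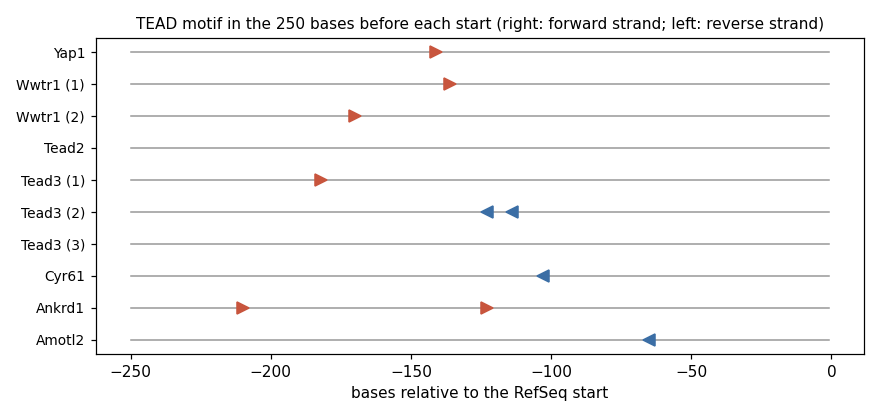
Positions of the searched TEAD letters in the 250 bases before each RefSeq start of the 7 members with a matched promoter, 1 line per promoter, the axis giving bases relative to the start. Right-pointing red triangles mark the forward strand and left-pointing blue triangles the reverse strand, and the lines of Tead2 and of the third Tead3 start carry no mark.

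Ankrd1 encodes a cardiac ankyrin repeat protein and is widely used as a YAP/TAZ reporter gene. With the gene on chromosome 19 from 36111965 to 36119844, it had 1.79, 2.27 and 2.44 CPM in AT2CTRL and 3.67, 4.27 and 2.86 CPM in AT2CAB. It was the 1 member of 10 whose groups did not overlap, every AT2CAB library lying above every AT2CTRL library. Of all tested genes, 17.1% did not overlap in either direction and 1171 of the 16723 lay above in this way. The log2 fold change of Ankrd1 was 0.73 with an SE of 0.33 (95% interval -0.02 to 1.48), with an unadjusted p of 0.0551 and an adjusted p = 0.528 by edgeR's quasi-likelihood test. These levels rested on 40 to 64 counts per library in AT2CTRL and 80 to 110 counts in AT2CAB, at the low end of the members. Over 18 alternative analyses the estimate stayed between 0.60 and 0.91, with an unadjusted p under 0.05 in 9 of them and an adjusted p no lower than 0.182. Ankrd1 was lowest in AT2CTRL replicate 1 and highest in AT2CAB replicate 2. So were the summed endothelial and fibroblast markers given below, and the part of such cells in the Ankrd1 value was not tested.

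Ctgf (now Ccn2; chromosome 10, 24595442 to 24598682) encodes a secreted matricellular protein. Its level was 25.7, 42.1 and 24.0 CPM in AT2CTRL and 35.6, 51.4 and 39.8 CPM in AT2CAB. The groups overlapped through AT2CTRL replicate 2, which lay above AT2CAB replicates 1 and 3. This gave a log2 fold change of 0.46 with an SE of 0.23 (95% interval -0.07 to 1.00, adjusted p = 0.575 by edgeR's quasi-likelihood test), and leaving out 1 library moved it between 0.31 (without AT2CAB replicate 2) and 0.76 (without AT2CTRL replicate 2).

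Ctgf is also made by endothelial and stromal cells, whose markers were read beside it. The 10 endothelial markers summed to 274, 572 and 389 CPM in AT2CTRL and 495, 814 and 570.5 CPM in AT2CAB. As for Ctgf, replicate 2 was the highest library in each group. All 10 had a positive log2 fold change (median 0.60), 6 at an unadjusted p under 0.05 and 0 called, where 4.62% of all genes were higher at that unadjusted p in edgeR. The 10 fibroblast markers summed to 170.3, 257 and 233 CPM in AT2CTRL and 328, 390.1 and 333 CPM in AT2CAB, with 4 higher at that level and 0 called. Replicate 2 was the highest library of each group for this sum too, and for the members Wwtr1, Tead1 and Amotl2. The part of endothelial and fibroblast cells in the Ctgf result was not tested.

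The 3 genes whose profile over the 6 libraries lay closest to that of Ctgf were Gja5, a gap junction protein, Mcc, and the water channel Aqp1, by the root mean square difference of centred log2 CPM. These differences were 0.059, 0.074 and 0.077, beside a median of 0.49 over all tested genes. For Yap1 the closest were Nt5dc1, the kinase gene Oxsr1 and Cul2, a scaffold of a ubiquitin ligase, with differences of 0.020, 0.022 and 0.022 beside a median of 0.28.

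Cyr61 (now Ccn1; chromosome 3, 145646971 to 145649985) encodes a secreted protein of the same family as CTGF. It had 132.8, 213.7 and 119.7 CPM in AT2CTRL and 141.8, 156.9 and 401.7 CPM in AT2CAB. AT2CAB replicate 3 stood above all other libraries, and the other 2 AT2CAB libraries lay inside the range of the controls. Its log2 fold change was 0.59 with an SE of 0.40 (95% interval -0.34 to 1.51, adjusted p = 0.668 by edgeR's quasi-likelihood test). It was -0.02 without AT2CAB replicate 3, and -0.12 in the 4 libraries without Y-linked reads. In the remaining pair of 1 library per group the log2 ratio was 1.60, which cannot be tested. The ratio of Cyr61 to Ctgf per length of exon was 6.11, 6.01 and 5.90 in AT2CTRL and 4.72, 3.62 and 12.0 in AT2CAB. The 3 controls thus lay close together and the AT2CAB libraries on both sides of them.

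Cyr61 is an immediate early gene, one of those switched on within minutes of a stimulus, so 12 others of that kind were read beside it, a list added after the values were seen. They summed to 13283, 10991 and 10616 CPM in AT2CTRL and to 10317, 11122 and 16190 CPM in AT2CAB. Among the controls this sum was highest in replicate 1, whereas Cyr61 was highest in replicate 2. Of the 12, 8 were highest in AT2CAB replicate 3, the library in which Cyr61 was highest. That library also stood apart on the first principal component, and how many of all tested genes were highest in it was not counted. The part of the 12 genes in the Cyr61 result was not tested.

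**Figure D4:**
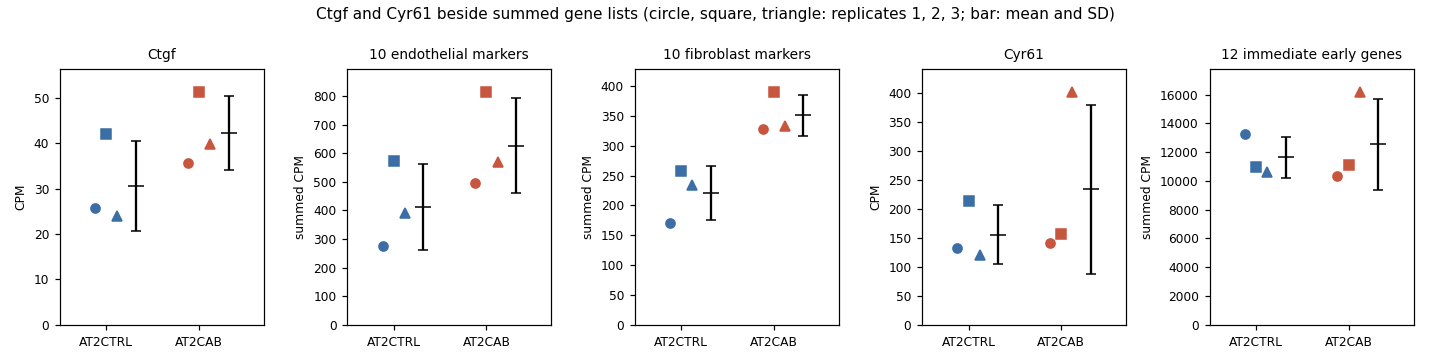
CPM of Ctgf and Cyr61 and summed CPM of the endothelial, fibroblast and immediate early gene lists in each library, each axis from 0, AT2CTRL in blue and AT2CAB in red, with circle, square and triangle for replicates 1, 2 and 3 and a black bar for the mean and SD of 3 libraries. The squares (replicate 2) are highest in both groups for Ctgf and for the endothelial and fibroblast lists. The red triangle (AT2CAB replicate 3) is highest for Cyr61 and the immediate early genes, whose highest blue points differ (square and circle).

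Amotl2 (chromosome 9, 102717804 to 102733417) encodes an angiomotin-like protein that binds YAP and holds it back, and is itself a YAP/TAZ target. It had 300.0, 395.4 and 319.3 CPM in AT2CTRL and 295.8, 307.2 and 234.3 CPM in AT2CAB. AT2CAB replicate 2 lay between AT2CTRL replicates 1 and 3, and the other 2 AT2CAB libraries lay below all controls. The log2 fold change was -0.28 with an SE of 0.16 (95% interval -0.65 to 0.09, adjusted p = 0.619 by edgeR's quasi-likelihood test). With 1 library left out in turn it ran from -0.36 (without AT2CTRL replicate 1) to -0.13 (without AT2CAB replicate 3). It was -0.15 without AT2CTRL replicate 2 and -0.15 with library size only. The covariate for Y-linked reads gave -0.28 (unadjusted p = 0.027, adjusted p = 0.208 in edgeR). Of the 4 targets, Ctgf, Cyr61 and Ankrd1 thus had positive and Amotl2 a negative estimate, none of which passed the test, and AT2CTRL replicate 2 was the highest control for 6 of the 10 members. For how many of all tested genes that library was the highest control was not counted.

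The wider pathway was read from 4 lists of 64 further genes, 4 of them in more than 1 list, of which 62 were tested. Vgll1 and Vgll2 had too few counts. None of the 62 was called by edgeR, and 6 were at an unadjusted p under 0.05, 5 higher and 1 lower, against 4.62% of all genes higher and 5.05% lower. DESeq2 and limma-voom also called 0, each with 8 at an unadjusted p under 0.05, where the share of all genes was not counted for these fits. Over the list of 16 Hippo kinases and scaffolds the median log2 fold change was -0.10, with 0 at an unadjusted p under 0.05. The genes with the smallest p were Mob1b and Sav1, which help the core kinases, at -0.51 and -0.22, and the kinases Taok2 and Lats2 at 0.16 and 0.18. Each of them overlapped between the groups. Leaving out AT2CAB replicate 3 brought Mob1b to -0.25 and Sav1 to -0.065. Without AT2CTRL replicate 1 they were -0.75 and -0.30, and without AT2CTRL replicate 3 Mob1b was -0.28. In the 4 libraries without Y-linked reads Mob1b was -0.49 (unadjusted p = 0.0035, adjusted p = 0.124 in edgeR). The covariate for Y-linked reads gave -0.50 for Mob1b (adjusted p = 0.049 in edgeR), under the fold limit. With 1 library left out in turn, Lats2 ran from 0.076 (without AT2CTRL replicate 1) to 0.29 (without AT2CTRL replicate 2), and Taok2 was 0.25 without AT2CAB replicate 1.

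Among 16 regulators that bind YAP, TAZ or TEAD or act on the pathway from the cell surface, 14 were tested, with a median log2 fold change of 0.14 and 0 at an unadjusted p under 0.05. The large cadherins Dchs1 and Fat4 had log2 fold changes of 0.55 and 0.58, from low levels of 3.43 to 6.54 CPM and 4.53 to 10.3 CPM. Dlg5, a scaffold at cell junctions, was at 0.43, and the polarity gene Pard3 at -0.31. Of these only Dchs1 did not overlap between the groups. With 1 library left out, Dlg5 ran from 0.24 (without AT2CTRL replicate 1) to 0.57 (without AT2CTRL replicate 3). Pard3 ran from -0.45 (without AT2CTRL replicate 1) to -0.19 (without AT2CTRL replicate 2). In the 4 libraries without Y-linked reads Dlg5 was 0.12 and Pard3 was -0.38 (unadjusted p = 0.0044, adjusted p = 0.137 in edgeR for Pard3).

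The list of 20 further YAP/TAZ targets had a median log2 fold change of 0.20, with 3 higher and 1 lower at an unadjusted p under 0.05. Axl, a receptor tyrosine kinase, had 8.12, 7.63 and 7.84 CPM in AT2CTRL and 18.2, 15.2 and 10.6 CPM in AT2CAB. The controls were close together and all AT2CAB libraries lay above them. Its log2 fold change was 0.90 with an SE of 0.21 (adjusted p = 0.218 by edgeR's quasi-likelihood test). It was 1.14 (adjusted p = 0.033 in edgeR) in the 4 libraries without Y-linked reads. There Axl was the 1 pathway gene called, among 56 called of 16316 genes tested. In DESeq2 Axl was at 0.91 (adjusted p = 0.024), under the fold limit. All 10 endothelial and all 10 fibroblast markers also had positive log2 fold changes, and the part of such cells in the Axl value was not tested.

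Rbms3, which encodes an RNA-binding protein, was the pathway gene with the smallest p. It had 77.3, 91.2 and 89.9 CPM in AT2CTRL and 58.8, 57.1 and 45.1 CPM in AT2CAB, with every AT2CAB library below every control. Its log2 fold change was -0.68 with an SE of 0.14 (adjusted p = 0.135 by edgeR's quasi-likelihood test, 0.014 in DESeq2). In the 4 libraries without Y-linked reads Rbms3 was at -0.61 (adjusted p = 0.026 in edgeR). With the covariate for Y-linked reads it was at -0.69 (adjusted p = 0.0065 in edgeR). Both were under the fold limit, and without AT2CAB replicate 2 its adjusted p was 0.615 in edgeR. Tgfb2, a TGF-beta ligand, and Asap1, a regulator of small GTPases, were at 0.73 and 0.53, with adjusted p values of 0.392 and 0.499 in edgeR.

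Actin genes and SRF targets, which respond to cell tension alongside YAP and TAZ, made a list of 16 with a median log2 fold change of 0.14 and 2 higher at an unadjusted p under 0.05. These were Myl9, a myosin light chain, at 0.86 and Zyx, which encodes zyxin of focal adhesions, at 0.38. Myl9 ran from 2.06 to 2.89 CPM in AT2CTRL and from 3.03 to 4.91 CPM in AT2CAB. Tagln, a smooth muscle actin-binding protein, was at 0.38 and Cnn2, a calponin, at -0.30. In the whole list 6 of 16 had groups that did not overlap, 4 above and 2 below, with Myl9, Zyx, Tagln and Cnn2 among them. The list of 16 Hippo kinases and scaffolds had 0. Over the 62 tested genes of the 4 lists together 9 lay above and 3 below, against 17.1% of all tested genes that did not overlap. Myl9 and Tagln are also expressed by smooth muscle and stromal cells, whose part in their values was not tested.

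**Figure D5:**
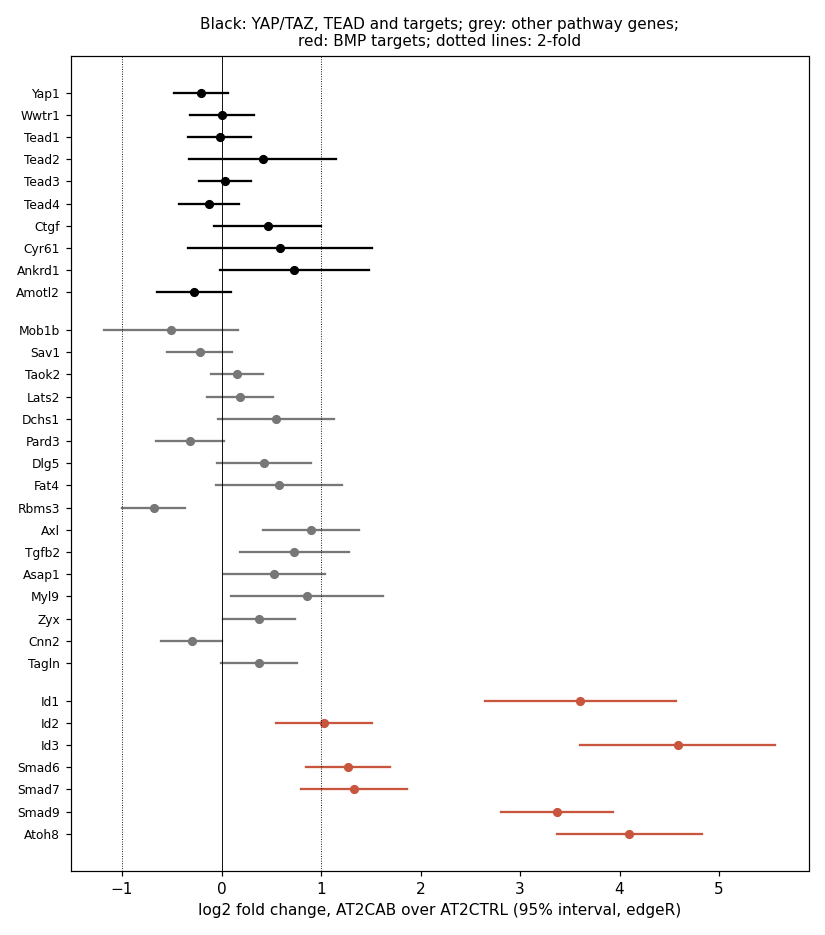
Log2 fold change of AT2CAB over AT2CTRL with its 95% interval from edgeR (horizontal axis) for the 10 members in black, 16 further pathway genes in grey and 7 BMP targets in red, with dotted lines at a 2-fold change. The intervals of all 10 members include 0, while those of the BMP targets lie to its right, with estimates from 1.03 to 4.58.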

How the data were processed

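Poly(A) RNA of sorted, lineage-labeled AT2CTRL and AT2CAB cells was sequenced as read pairs, 3 mice per group. The authors trimmed the reads with PRINSEQ and Trimmomatic, aligned them to mm10 with HISAT2, removed duplicates with SAMtools and deposited raw counts per gene from featureCounts 1.5.3. Per the file headers, reads were counted singly and without strand, leaving out those that fell on more than 1 gene, so a pair can count as 2 and precision of low counts is overstated. No member shares exon bases with another gene of the table. The table's gene lengths gave levels per kilobase of exon. The quasi-likelihood test of edgeR 4.0.16 (R 4.3.3) was run on all genes that passed its default filter (minimum count 10), with TMM scaling and p-values adjusted by Benjamini and Hochberg's method, after a run on simulated data. Calls needed an adjusted p below 0.05 together with a log2 fold change above 1, up or down. CPM are counts relative to TMM-scaled library totals. The authors' methods name DESeq2, which was an alternative here (1.42.0), as was limma-voom (limma 3.58.1). Others were scalings, filters, halved counts, a replicate block, age, subsets of libraries and, chosen after seeing the data, a covariate for Y-linked reads. Groups and replicate numbers came from the sample labels. Libraries of a group differed by more than counting noise and all 6 were kept. Genes named beside the members are the 4 with the smallest p in each pathway list and the 3 closest in profile to Yap1 and to Ctgf. Members and lists were chosen with earlier results of these data known. Promoters are from RefSeq. When tamoxifen was given to these mice is not given in the sources used here.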

Additional observations from a re-analysis of the deposited data

How the results depend on the processing

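Of 180 values of the 10 members under 18 alternatives, 163 kept their sign and side of the threshold and 17 changed sign, and no member was called under any of them. Leaving out 1 library in turn gave 6 to 63 genes called over all genes, against 40, and 0 members. DESeq2 called 144, limma-voom 26, edgeR without the low-count filter 62, and the covariate for Y-linked reads 142. With that covariate 3 of 10 members (Yap1, Ankrd1 and Amotl2) were at an unadjusted p under 0.05 in edgeR, against 0 in the main fit. Of the pathway genes 20 were at that level, against 6 in the main fit. The share of all genes at that level was not counted for the fit with the covariate. The 4 libraries without Y-linked reads gave 1 pathway gene (Axl) among 56 called of 16316 genes tested. A replicate block gave 41 genes and 0 members called. With the block, Ctgf was the 1 member at an unadjusted p under 0.05 (0.49, unadjusted p = 0.013, adjusted p = 0.464 in edgeR). The correlations of deviations of libraries with the same number were -0.24, 0.20 and -0.53, and those with different numbers ran from -0.55 to 0.61. With 3 libraries per group these cannot settle whether the numbers pair the libraries, so the main fit was unpaired. Signs turned for Wwtr1, Tead1, Tead3, Tead4 and Cyr61. Wwtr1 went from 0.00046 to -0.016 without the filter, and leaving out a library gave -0.11 to 0.11. Tead1 went from -0.016 to 0.0098 with DESeq2's size factors in edgeR, 0.059 with upper-quartile scaling, 0.12 with library size only, 0.0099 with a filter of 1 CPM and 0.0035 with halved counts, and -0.12 to 0.087 leaving out a library. Tead4 was 0.0032 with library size only, and Tead3 -0.020 to 0.12 leaving out a library. Cyr61 was -0.12 in the 4 libraries and -0.020 to 0.88 leaving out a library. The cause was not tested. The median log2 fold change of all genes was -0.0096 in the main fit and 0.12 with library size only. It was 0.064 with upper-quartile scaling, 0.029 without the filter and 0.017 with DESeq2's size factors in edgeR. With a filter of 1 CPM and with halved counts it was -0.012.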
